A study of Canis lupus familiaris with 6 samples.

Results

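The miR-15/16 family was measured in Sca1+ and Sca1- cells of 3 canine mammary cancer cell lines, on arrays that carry 289 canine miRNAs. Its 7 members, taken by the gene name on the array, were cfa-miR-15a, cfa-miR-15b, cfa-miR-16, cfa-miR-195, cfa-miR-497, cfa-miR-424 and cfa-miR-503 (cfa is the prefix for dog and is left out hereafter). Of the members, 5 were detected on at least 1 of the 6 arrays: miR-16, miR-15b and miR-15a were well measured on the 3 brightest arrays, miR-195 and miR-497 stayed near the detection limit, and miR-424 and miR-503 were detected nowhere. In the main setting no member passed a test between the Sca1 fractions or between the lines.

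Cells of P114, CMT-U27 and CMT-U309 were cultured in serum-containing medium, stained with an antibody to Sca1 (stem cell antigen 1, a surface protein by which stem and progenitor cells are often sorted) and separated by flow cytometry. The labels call the Sca1+ cells cancer stem cells and the Sca1- cells the control, and they name no transgene or drug for any group. With 1 sample for each fraction of each line, every fraction had 3 samples and every line 2. No age, passage or number of cultures is stated, so the p-values cover just the spread among these samples, which may be technical. The descriptions of both P114 samples speak of cells grown with macrophages and those of the other samples of mono-culture, while titles and sources name no macrophages.

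The arrays fell into a bright set, B1, B2 and B3, with 89 to 111 detected miRNAs, and a dim set, D1, D2 and D3, with 9 to 39. The deposited files give 2 assignments of arrays to samples, and no label says which is right. By the scanner files, followed here, the CMT-U309 fractions were B1 (Sca1+) and B2 (Sca1-), those of CMT-U27 were D1 (Sca1+) and D2 (Sca1-), and those of P114 were D3 (Sca1+) and B3 (Sca1-). By the deposited value table, the P114 fractions were B1 (Sca1+) and B3 (Sca1-), those of CMT-U27 were D1 (Sca1+) and B2 (Sca1-), and those of CMT-U309 were D2 (Sca1+) and D3 (Sca1-). The fraction of B1, B2, B3 and D1 is therefore the same in both, and that of D2 and D3 is exchanged.

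miRNAs are short RNAs that pair with messenger RNAs through a seed near their 5′ end and lower the output of those messengers. The miR-15/16 family is known for repressing cyclins D and E, the kinase CDK6 and the survival factor BCL2, and so for holding cells in the G1 phase. Its genes lie in pairs. miR-15a and miR-16 form the pair that is lost in many human chronic lymphocytic leukaemias, miR-15b and a second copy of miR-16 lie in an intron of SMC4, a condensin gene, and miR-195 with miR-497 and miR-424 with miR-503 form the remaining pairs. In the mouse mammary gland the miR-424 and miR-503 pair is known for its part in involution.

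The stretch of each member that the array reads is shown first, because it decides which member a signal can belong to. Each line gives the target of the longer of the 2 probes of a member, 5′ to 3′, as the reverse complement of the deposited probe sequence in DNA letters. Capitals mark AGCAC, the longest run that the targets of 5 members share.
miR-15a: gcAGCACataatggtttgt
miR-16: cAGCACgtaaatattggcg
miR-15b: gcAGCACatcatggttta
miR-195: AGCACagaaatattggca
miR-497: cAGCACactgtggtttgt
miR-424: tgaggcgctgctat
miR-503: gcgggaacagtactg

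Over the whole alignment, shared run included, miR-16 and miR-195 agreed at 15 of 18 bases, miR-15a and miR-15b at 16 of 18, miR-15a and miR-497 at 15 of 18, and miR-15b and miR-497 at 13 of 17. Members of 1 locus were less alike: miR-15a and miR-16 agreed at 12 of 18 bases, miR-15b and miR-16 at 10 of 17, and miR-195 and miR-497 at 9 of 17. Of all 289 miRNAs on the array, 10 (3.46%) had AGCAC in the target of their longest probe, searched in the 5′ to 3′ direction. The 5 that were not members were miR-29c, miR-96, miR-142, miR-143 and miR-1271. The targets of miR-424 and miR-503 did not hold it. The letters read for miR-424 are those known for the opposite strand of its hairpin and not for the strand that carries the family seed, so its values here say nothing of the seed-bearing strand. The letters on the array thus show a shared run for 5 of the 7 members, and the values below are given by locus. Full mature sequences were not read, so the run was not set against the family's seed. Its lack in the miR-503 target says nothing of the seed of miR-503.

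The probes map to 4 places in the dog genome, with coordinates of build canFam2 as the files give them and no strand stated. The longer miR-15a probe lies at chr22:4786473-4786490 and that of miR-16 at chr22:4786613-4786631, with 122 bases between them. The longer miR-15b probe lies at chr34:29469912-29469928, and the miR-16 probe maps a second time at chr34:29470056-29470074, 127 bases away. The signal of miR-16 therefore sums both of its loci, which cannot be told apart on this array. miR-195 lies at chr5:35041875-35041891 and miR-497 at chr5:35042182-35042198, with 290 bases between them. miR-503 lies at chrX:108244893-108244906 and miR-424 at chrX:108245229-108245241, with 322 bases between them. In RefSeq's dog annotation, which uses another assembly and is used for names only, 8 hairpins matched. MIR15A and MIR16-1 lie inside LOC102156997 next to KCNRG, MIR15B and MIR16-2 inside SMC4, MIR195 and MIR497 lie next to C5H17orf49, and MIR424 and MIR503 next to MIR542.

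Levels are given as the total gene signal, a background-subtracted intensity summed over the spots of a miRNA, with the error that the authors' software deposited for it. It is not scaled between arrays, it has 1 value per array, and levels of different miRNAs are not set against each other because probes bind unequally. The deposited error is technical and holds no spread between samples, so orders given against it describe these arrays and not their groups. The lowest signal of any detected miRNA was between 7.51 and 12.6 units on the 6 arrays.

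miR-16, summed over both of its loci, had a signal of 1595 ± 119 on B1, 1189 ± 89.4 on B2, 872 ± 66.1 on B3 and 69.7 ± 7.01 on D1, and was not detected on D2 or D3. In these unscaled signals neighbours in the order differed by 2.73, 2.86 and 12.1 times their combined technical error. The order of B1 and B2 depends on the scaling. From B2 to B1 the median miRNA shifted by 0.50 on the log2 scale and miR-16 by 0.42. In the values scaled over 6 arrays B2 (-0.89) was above B1 (-1.19). In those scaled over the bright arrays alone B1 (1.41) was above B2 (1.14). As a share of the summed signal of all miRNAs, miR-16 made up 2.30% on B1, 1.68% on B2, 1.24% on B3 and 2.16% on D1. The signal was 12.5-fold lower on D1 than on B3, while the share was higher.

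miR-15b had a signal of 1352 ± 101 on B1, 722 ± 55.6 on B2, 786 ± 60.8 on B3 and 58.0 ± 6.39 on D1, and was not detected on D2 or D3. In these unscaled signals B1 and B3 differed by 4.79 times the combined technical error and B3 and B2 by 0.772 times it. The median miRNA shifted by 0.55 on the log2 scale from B3 to B1, and miR-15b by 0.78. It made up 1.95% of the array's summed signal on B1, 1.02% on B2, 1.12% on B3 and 1.80% on D1. For miR-15b and for miR-16, the shares on B1 and D1, both Sca1+ in either assignment, were above those on B2 and B3, both Sca1-. In the values scaled over 6 arrays D1 was instead the lowest of these 4 arrays. There miR-16 was at -2.26 on D1, -1.19 on B1, -0.89 on B2 and -1.51 on B3. In the same order miR-15b was at -2.51, -1.42, -1.55 and -1.60. The shares are a description, and D2 and D3, where neither member was detected, give none.

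miR-15a had a signal of 223 ± 18.5 on B1, 185 ± 17.0 on B2 and 188 ± 16.5 on B3, with no detection on a dim array. Its 3 values were nearly level. B1 exceeded B3 by 1.42 times the combined error and B3 exceeded B2 by 0.0998 times it, so none of the neighbours can be told apart at this error.

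miR-195 had a signal of 46.4 ± 6.25 on B1 and 20.1 ± 6.04 on B2, and on no other array was it detected. These totals sum different probes, both on B1 (31.5 for the longer and 14.8 for the shorter) and the longer alone on B2, so no fold is given. miR-497, its neighbour, had 30.1 ± 4.74 on B1 and 20.1 ± 6.04 on B2 and was likewise not detected elsewhere. Both of its totals come from the longer probe. Both members of this locus were seen on the same pair of arrays, of CMT-U309 by the scanner files and of different lines by the value table.

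miR-424 and miR-503 were not detected on any of the 6 arrays. Over all 7 members, 7 of 21 possible detections were made on Sca1+ arrays and 8 of 21 on Sca1- arrays, the same counts in both assignments since D2 and D3 detected none. Per array the count was 5 of 7 on B1 and B2, 3 on B3, 2 on D1 and 0 on D2 and D3. It followed the number of miRNAs detected in all, which was 111, 91, 89, 39, 22 and 9 on the same arrays. The part of depth in the members' detection was not tested. In sorted bulk samples, fewer cells with a miRNA and less of it per cell cannot be told apart.

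**Figure D1:**
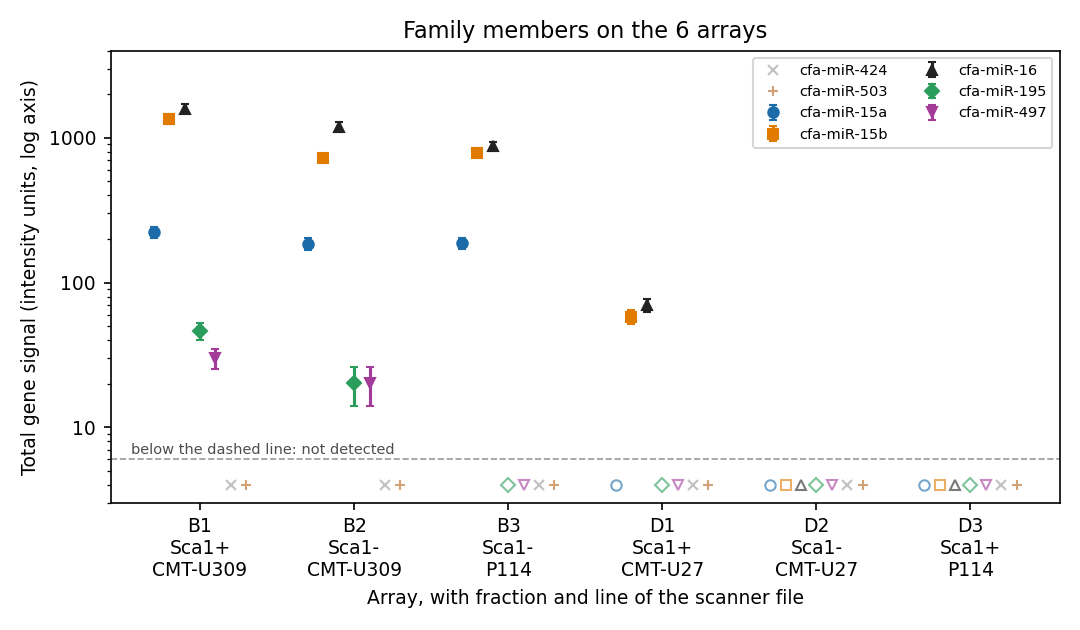
Total gene signal of the 7 members (vertical axis, intensity units, log scale) on each of the 6 arrays (horizontal axis, with the fraction and line of the scanner file). Points are single arrays, bars are the error deposited with each signal, and symbols under the dashed line are members not detected. miR-16 and miR-15b span B1 to D1, miR-15a the 3 bright arrays, and miR-195 and miR-497 only B1 and B2.

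The spots show what lies under these calls. Each member had 2 probes of 20 spots, and of the 1680 member spots on the 6 arrays 96 were flagged as outliers and left out and 0 were saturated. On B1, spots of the longer miR-16 probe had a mean processed signal of 785 ± 51.2 (SD over 20 spots), and the same probe had 594 ± 35.7 on B2, 435 ± 25.5 on B3 and 35.4 ± 2.82 on D1. On D2 it had 7.82 ± 1.46 and on D3 3.03 ± 1.80, with 18 of 18 spots above 0 on each and 0 well above background. On both arrays miR-16 thus gave spots above 0 that stayed under the detection limit. The longer miR-15b probe had 2.81 ± 2.54 on D2, with 19 of 20 spots above 0, and the longer miR-15a probe had 5.31 ± 3.08 on D1, with 17 of 18. Spots of one probe on one array are technical repeats and carry no sample error.

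miR-195 and miR-497 sat at the edge. The longer miR-195 probe had 23.2 ± 2.56 on B1, with 19 of 19 spots well above background, and 14.96 ± 2.72 on B2, with 0 of 19. Its shorter probe had 10.95 ± 2.17 on B1, with 3 of 20 spots well above background. The longer miR-497 probe had 22.2 ± 2.42 on B1, with 20 of 20 spots well above background, 14.9 ± 2.37 on B2, with 0 of 18, and 3.73 ± 2.79 on B3. The detection flag on B2 thus rests on no single spot that was well above background for either member. The mean signals of miR-424 and miR-503 lay below 0 on every array for both probes, with 1 exception, the longer miR-503 probe on B1 at 1.61, and 0 of their spots were well above background.

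**Figure D2:**
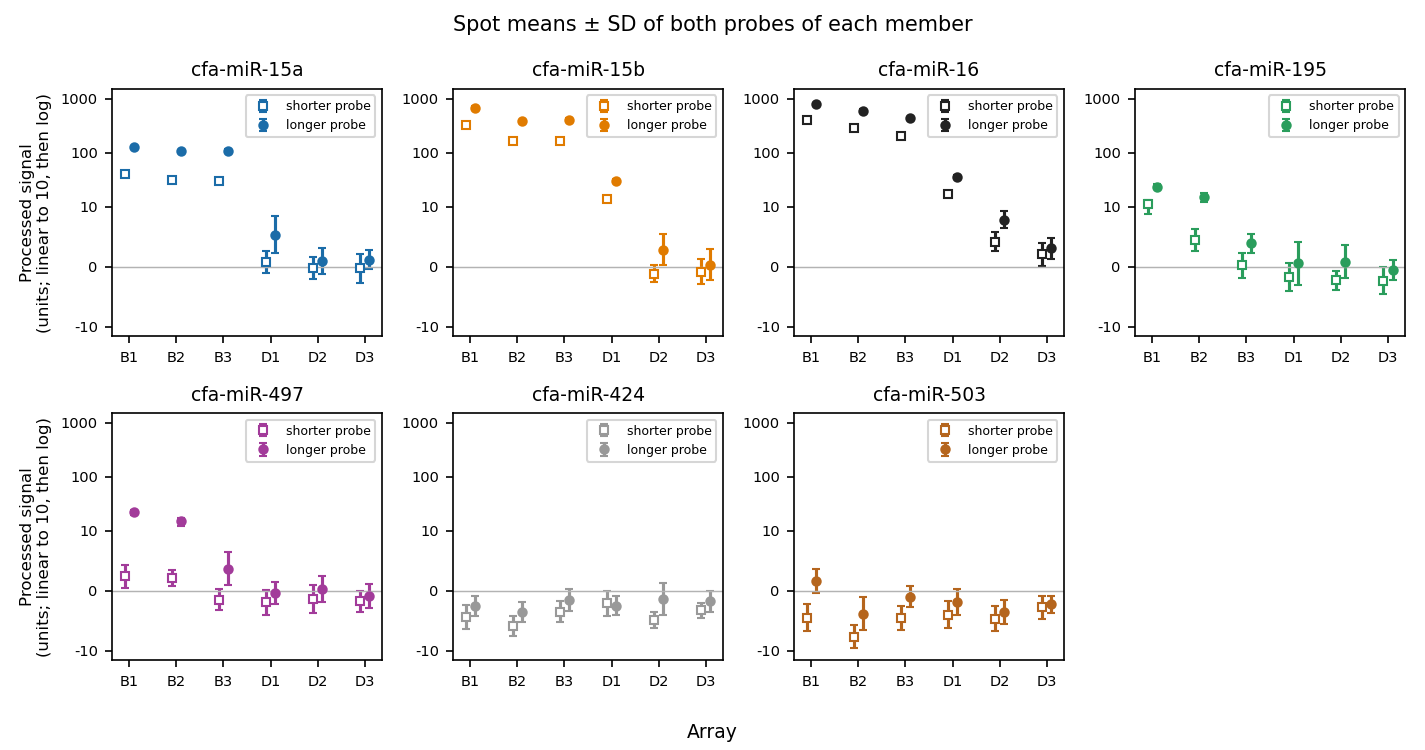
Mean processed signal of the spots of each probe (vertical axis, intensity units, linear to 10 and log beyond) on the 6 arrays (horizontal axis), 1 panel per member. Open squares are the shorter and filled circles the longer probe, and bars are the SD over the spots left after outliers were dropped. miR-16 falls from 785 on B1 to 3.03 on D3, while miR-424 and miR-503 stay around or below 0.

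The longer probe gave the brighter spots for miR-15a, miR-15b and miR-16 wherever they were detected, and the ratio of the 2 probes shows how steady each reading was. For miR-16 it was 2.004 on B1, 2.05 on B2, 2.16 on B3 and 2.07 on D1, close to constant although D1 was far dimmer. For miR-15b it was 2.05, 2.33, 2.47 and 2.12 on the same arrays, and for miR-15a 3.13, 3.51 and 3.68 on the 3 bright arrays. In each of these members the ratio was lowest on B1, the array with the highest signal.

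The question of the series, which miRNAs differ in the Sca1+ cells, was put first over all 6 arrays with the line as a term. With limma, 0 of 80 miRNAs tested passed (0%), none at an unadjusted p under 0.05 either (0 of 80), and the median log2 difference of all tested miRNAs was -0.81. The family had 3 tested members, and each had an adjusted p of 0.995 with limma, a linear model that pools the spread over miRNAs (adjusted by Benjamini-Hochberg, threshold 0.05). miR-15a differed by 0.06 on the log2 scale (SE 1.97, 95% interval -4.81 to 4.93), miR-15b by -1.06 (SE 2.28, -6.69 to 4.58) and miR-16 by -0.62 (SE 1.69, -4.80 to 3.56). These sizes take in arrays on which the member was not detected and have no order. Without either CMT-U27 array miR-15a was at -1.64, and without either P114 array miR-15b was at 1.499 and miR-16 at 0.014. The intervals allow changes of many fold either way, so the comparison shows neither a difference nor its absence. miR-195 and miR-497 were detected on too few arrays to be tested.

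On the 3 bright arrays B1 (Sca1+) was set against B2 and B3 (Sca1-), whose fractions hold in both assignments. B1 lay in row 1 of the slide and B2 and B3 in row 2, so fraction and slide row cannot be told apart here, nor can the fraction and anything else particular to the 1 Sca1+ sample. With limma 4 of 90 tested miRNAs passed (4.44%), all lower on B1, 23 had an unadjusted p under 0.05 (25.6%), and the median log2 difference was 0.18. None of the 5 tested members passed, and 4 of the 5 had values above 0, as did 50 of all 90 tested miRNAs (55.6%).

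By locus, miR-15a had a log2 difference of -0.11 (SE 0.33, 95% interval -1.09 to 0.88, adjusted p = 0.846 with limma, n = 1 and 2 arrays). miR-16 had 0.31 (SE 0.28, -0.53 to 1.14, adjusted p = 0.477 with limma), and miR-15b had 0.45 (SE 0.36, -0.63 to 1.54, adjusted p = 0.431 with limma). The intervals are narrower than those over 6 arrays and still take in changes in both directions. With no term for the line, their spread is that between B2 and B3, pooled over miRNAs. These 2 arrays are of different lines in either assignment. The sign of miR-15a turned without B3 (0.079), without scaling (0.21) and with normexp background (a model-based correction of the unsubtracted signals, 0.23), and with scaling over all probes miR-15b was at -0.0037 and miR-16 at -0.15. No scaling and scaling over all probes shift every miRNA alike, to medians of 0.50 and -0.28, and so leave values relative to the median as they were. Relative to that median miR-15a was at -0.28 and miR-15b at 0.28, and with quantile scaling at -0.35 and 0.25. miR-15b was below the median with normexp background (-0.34) and without a filter (-0.19).

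miR-195 had a log2 difference of 1.36 (SE 0.85, 95% interval -1.20 to 3.92, adjusted p = 0.366 with limma) and miR-497 had 1.83 (SE 1.34, -2.22 to 5.87, adjusted p = 0.413 with limma). Neither is exact, since neither was detected on B3 and no spot was well above background on B2. Set against the lowest measurable signal of B2 and B3, miR-195 was at least 1.013-fold higher on B1, a bound that ran from 0.737 to 1.27 over 4 scalings, and for miR-497 it was under 1 and gives no fold. With normexp background both passed as higher, miR-195 by 1.04 (adjusted p = 0.0018 with limma) and miR-497 by 1.03 (adjusted p = 0.00185 with limma). In that setting 47.8% of all tested miRNAs were called higher. Over the alternatives the adjusted p of miR-195 ranged from 0.0018 to 0.929 and that of miR-497 from 0.00185 to 0.881.

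**Figure D3:**
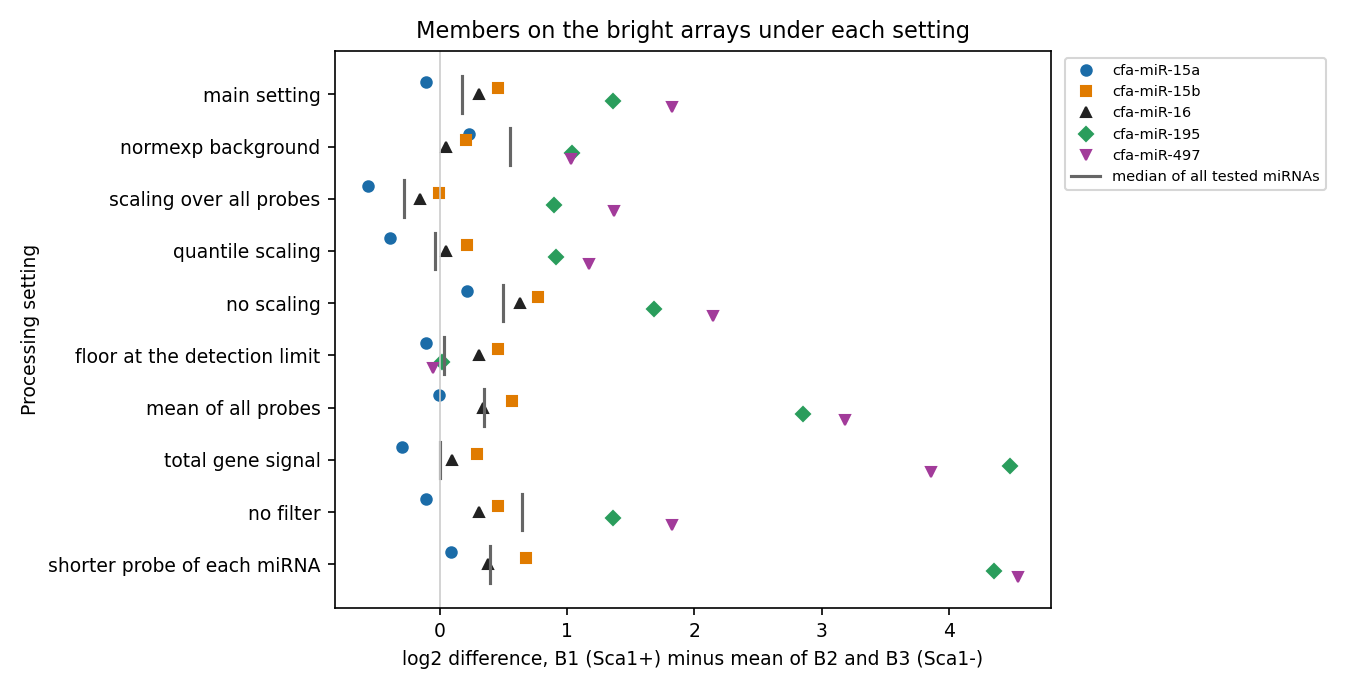
Log2 difference of B1 (Sca1+) from the mean of B2 and B3 (Sca1-) (horizontal axis) for the 5 tested members under each processing setting (vertical axis); grey bars mark the median of all tested miRNAs. No error bars are drawn, and SEs for the main setting are 0.28 to 1.34. The values of miR-15a lie on both sides of 0 and those of miR-195 run from 0.02 to 4.48. The highest is from the total gene signal, where B3 holds the 0.1 set for no detection, and is not a measured size.

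In the total gene signals the members did not move as a block from array to array. From B2 to B1, the signal of miR-15b was 1.87-fold higher, against 1.34-fold for miR-16 and 1.20-fold for miR-15a, where the median miRNA of the 78 detected on all bright arrays shifted by 0.50 on the log2 scale. From B3 to B1 the folds were 1.72 for miR-15b, 1.83 for miR-16 and 1.19 for miR-15a, with a median shift of 0.55. B2 over B3 gave 1.36 for miR-16, beside 0.919 for miR-15b and 0.987 for miR-15a, with a median shift of 0.09.

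Ratios between members are free of any scaling of an array by 1 factor, but not of the background correction. With normexp background B1 differed from B2 and B3 by 0.23 for miR-15a and 0.21 for miR-15b on the log2 scale, nearly alike. In the main setting these were -0.11 and 0.45. The ratios below are from the total gene signal alone. The ratio of miR-15b to miR-15a was 1.56-fold higher on B1 than on B2 (log2 change 0.64 ± 0.24, error from the deposited errors) and 1.45-fold higher than on B3 (0.54 ± 0.23), and B2 and B3 differed by -0.10 ± 0.24. This error is technical and holds no spread between samples. The ratio of miR-15a to miR-16, named for 1 locus, changed by -0.16 ± 0.24 from B2 to B1, -0.62 ± 0.23 from B3 to B1 and -0.47 ± 0.24 from B3 to B2. The ratio of miR-15b to miR-16 changed by 0.48 ± 0.22, -0.09 ± 0.22 and -0.57 ± 0.22 over the same steps. The array farthest from the others was thus B3 in the first of these ratios and B2 in the second, both Sca1-. A ratio shows unequal change and not which member changed, and the ratios were not tested over samples.

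The miRNAs whose pattern over B1, B2 and B3 was most like each member were found by Euclidean distance of the log2 total gene signals, centred over the 3 arrays, among the 77 others detected on all of them. For miR-15a they were miR-17, miR-125b and miR-98, at distances of 0.0691, 0.124 and 0.135, where the median of the others was 0.615. For miR-15b they were let-7b, miR-101 and miR-378, at 0.105, 0.110 and 0.130 (median 0.5995). For miR-16 they were miR-92a, miR-130a and miR-103, at 0.122, 0.185 and 0.228 (median 0.540). The members themselves were not among each other's nearest: miR-15a and miR-15b lay 0.485 apart, miR-15a and miR-16 0.459, and miR-15b and miR-16 0.434, with ranks of 24 to 31 of 77. So few arrays give few patterns to choose from, so these distances describe and do not test.

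**Figure D4:**
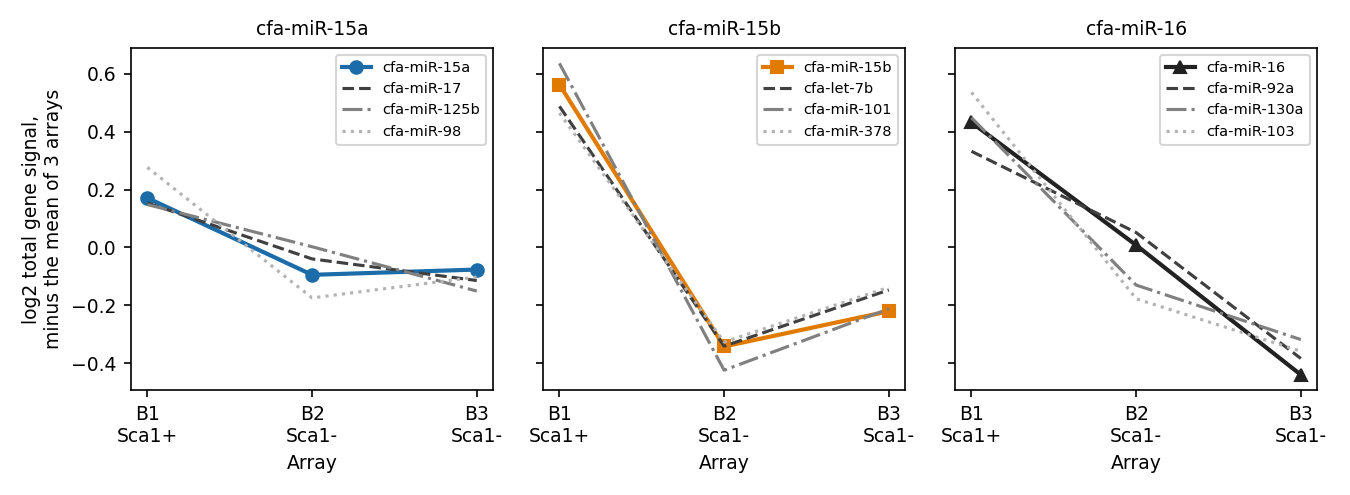
Log2 total gene signal minus its mean over the 3 bright arrays (vertical axis) for miR-15a, miR-15b and miR-16 (coloured lines) and the 3 miRNAs nearest to each (grey lines) on B1, B2 and B3 (horizontal axis). Each point is 1 array. miR-15a is nearly flat, miR-15b is high on B1 with B2 and B3 low, and miR-16 falls from B1 through B2 to B3.

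miR-103 and miR-107 belong to the wider group that shares part of the family's seed. The signal of miR-103 reached 450 on B1, 275 on B2, 242 on B3 and 10.97 on D1, and miR-107 had 448, 203, 183 and 16.2. Like miR-16 and miR-15b, both were not detected on D2 and D3 and were highest on B1. Their log2 differences on the bright arrays were 0.45 and 0.84, and 0 of the 2 passed. Of 12 tested miRNAs on a list of other repressors of G1 cyclins and kinases (let-7, miR-26, miR-29 and miR-34), 0 passed as higher and 1 as lower on the lone Sca1+ array, miR-34a, a p53 target whose signal of 37.5 on B1 compares with 444 (B2) and 363 (B3). With limma its adjusted p was 0.0160, but 0.0627 with quantile scaling, 0.0579 with the mean of all probes, 0.0533 with the total gene signal, 0.401 without a filter and 0.0882 with the shorter probe. Of those 12, 6 had values above 0, with a median of 0.01, where 50 of all 90 tested (55.6%) were above 0. Of 12 tested miRNAs of clusters known to promote proliferation (miR-17 and its paralogues, miR-221 and miR-222), 0 passed and 7 had values above 0, with a median of 0.33. The family's own median over 5 tested members was 0.45, and that of all 90 tested was 0.18. This order does not hold in every setting: a floor at the detection limit gave medians of 0.018 and 0.037, and normexp background gave 0.23 and 0.55. Only the tested members enter these medians, and the undetected miR-424 and miR-503 do not.

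The lines were compared with the fraction as a term, over all 6 arrays. For P114 over the mean of CMT-U27 and CMT-U309, with limma 0 of 80 miRNAs passed (0%) and 0 had an unadjusted p under 0.05. The members' lowest adjusted p was 0.975. For CMT-U309 over CMT-U27, with limma 0 of 80 passed (0%), 9 had an unadjusted p under 0.05 (11.2%), and the members' lowest adjusted p was 0.674. Without either P114 array 5 miRNAs passed in this comparison, and 14 did by the value table, none of either set a member. No fold is given for a member between lines. In the scanner-file assignment CMT-U27 has dim arrays only and CMT-U309 bright ones only, so line and brightness cannot be told apart. Under the value table, where CMT-U309 has dim arrays only, the members' lowest adjusted p was 0.150 and 0.0780 in the same comparisons.

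Several markers of other cells and states differed between the arrays. Of 7 epithelial miRNAs (the miR-200 family, miR-203 and miR-205), 5 were detected on B1, with a summed signal of 5129, and 1 each on B2 (28.9) and D2 (23.9). Of 5 mesenchymal miRNAs, 1 was detected on B1 (19.9) and 2 each on B2 and B3 (635 and 623). Of 6 leukocyte miRNAs, 1 to 3 were detected per array, with signals that summed to 948 (B1), 219 (B2), 182 (B3) and 59.6 to 65.7 (dim arrays). Among these leukocyte miRNAs, miR-223 was detected on every array (59.6 to 80.9) and miR-155 on each bright array (78.0 to 189). The signal of miR-223 was nearly level, while that of let-7a fell from 4537 on B1 to 28.5 on D3. Whether so level a signal reads leukocytes was not tested. miR-146a was detected on B1 alone (690) and miR-146b on B3 alone (32.7). miR-142 and miR-150 were not detected on any array, nor was the endothelial miR-126. Of the erythroid miRNAs, miR-451 was detected on B2 at 18.1 and on D2 at 39.4. B1 thus differed from B2 and B3 in these markers too, and their part in the family's values was not tested. No epithelial miRNA of the list was detected on B3, D1 or D3, although the labels name mammary cancer cells.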

How the data were processed

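Total RNA from 6 samples was labelled and hybridized to 1-colour Agilent miRNA arrays on 1 slide. The scanner files the authors deposited give spot intensity from Agilent Feature Extraction (10.10.1.1 per the file headers, 10.7.3.1 per the submitters' processing notes), background-subtracted and not scaled between arrays. The labels name the dye Cy5, the files 1 green channel. Total gene signal is set to 0.1 where a miRNA is not detected. Of the deposited value table's intensity columns, 2 equal the scanner file of the same sample and 4 that of another (311 features, relative tolerance 0.0001).

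log2 intensities were scaled by the 75th percentile over probes well above background on every array of the fit, and floored at the lowest positive value. Over 6 arrays just 10 probes of 6 miRNAs served for this scaling, against 122 probes of 70 miRNAs on the bright arrays. Outlier spots were dropped, and a miRNA took its brightest probe. miRNAs detected on at least 3 of 6 arrays (80), or 2 of the 3 bright ones (over 50 detected miRNAs; 90), were tested with limma 3.58.1 (R 4.3.3; version 1.17.8 of data.table), after a check on simulated data, with Benjamini-Hochberg adjustment at 0.05. Samples are paired by line, from which both of its fractions came, and the fit over the bright arrays leaves this pairing out. The number of arrays limits the precision. All members were named, with their 3 nearest miRNAs and lists of related and marker miRNAs. Members, lists and the bright set were chosen with earlier results of these data known. Alternatives changed background, scaling, floor, probe, filter, assignment and samples.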

Additional observations from a re-analysis of the deposited data

Results flagged for a closer look

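By the scanner files, the difference of Sca1+ minus Sca1- within a line, in scaled log2 units, had opposite signs in different lines for each of the 3 members tested over 6 arrays. In CMT-U27 it was 3.47 for miR-15a, 2.86 for miR-15b and 0.33 for miR-16. In CMT-U309 it was -0.48, 0.14 and -0.30, and in P114 it was -2.81, -6.18 and -1.89, in the same order. The differences between lines were not tested, with 1 pair per line. Both arrays of the pair detected the members only in CMT-U309, so neither the sizes nor the signs in the other lines are sure. In both of those lines the higher value was on the array with more detected miRNAs. These were D1 (39) against D2 (22) in CMT-U27, and B3 (89) against D3 (9) in P114. Fraction and brightness cannot be told apart there. The signs in CMT-U309 depend on the scaling. When scaled over the bright arrays alone, B1 minus B2 was 0.079 for miR-15a, 0.70 for miR-15b and 0.26 for miR-16. By the value table, miR-15a was below 0 in all 3 lines (-2.39 in CMT-U27, -2.89 in CMT-U309 and -0.32 in P114). In the same order miR-15b was at -0.96, 2.40 and 0.18 and miR-16 at -1.36, 0.82 and 0.32. There both arrays detected all 3 members in P114, and miR-15b and miR-16 in CMT-U27.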

How the results depend on the processing

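Over all 6 arrays, no alternative made a member pass between fractions, and 0 miRNAs passed in any of them. The sign of miR-15a (0.06) turned with no scaling (-0.997), with probes averaged (-0.78), with the total gene signal (-2.42) and by the value table (-1.87), and ran from -1.64 to 1.49 when single arrays were left out. That of miR-15b (-1.06) turned with normexp background (0.14), a floor at the detection limit (0.040), the total gene signal (0.16) and the value table (0.54), and ran from -3.02 to 1.499. That of miR-16 (-0.62) turned with normexp background (0.0019) and the total gene signal (0.040), and ran from -1.09 to 0.014. The total gene signal holds 0.1 on arrays without detection, D2 and D3 among them, so its sizes rest in part on that constant. Without the replicate block, here the line, 0 miRNAs passed and the differences were again 0.06, -1.06 and -0.62. On the bright arrays the count of 4 became 54 with normexp background (43 higher and 11 lower), 11 with scaling over all probes, 10 with a floor at the detection limit, 2 with the mean of all probes and 8 among miRNAs detected on all 3 arrays. With limma it was 0 with quantile scaling (29 unadjusted), without a filter (32 unadjusted) and with the shorter probe of each miRNA (20 unadjusted), the last an alternative chosen after seeing the data. miR-15a (-0.11) turned with normexp background (0.23), without scaling (0.21) and with the shorter probe (0.089), and was -0.29 without B2 and 0.079 without B3. miR-15b (0.45) and miR-16 (0.31) were at -0.0037 and -0.15 with scaling over all probes, which moves every miRNA alike (median from 0.18 to -0.28) and leaves both above the median, and miR-497 (1.83) with the floor (-0.049). Leaving out B2 or B3 gave 0.21 to 0.70 for miR-15b, 0.26 to 0.35 for miR-16, 0.51 to 2.21 for miR-195 and 0.44 to 3.21 for miR-497. For CMT-U309 over CMT-U27 the count of 0 became 1 with the total gene signal, 14 by the value table, and 0 to 5 when single arrays were left out, 5 without either P114 array. The causes were not tested. On D2 and D3 no member rose above the detection limit, which bounds what these arrays can show.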
